A study of Mus musculus with 24 samples.

Results

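The genes described here are the subunits of the mitochondrial respiratory chain and ATP synthase, in proximal tubules and endothelial isolates of mouse kidney after sham surgery or ischemic injury. Members were chosen by gene symbol, as genes named for subunits of complexes I to V with at least 1 protein-coding transcript, leaving out those marked as pseudogenes. The rule itself uses no expression value. The rule found 98 of the 53392 genes in the files. Of these, 85 are nuclear and 13 lie on the mitochondrial genome. The nuclear members were 35 genes of complex I, 4 of complex II, 8 of complex III, 20 of complex IV and 18 of ATP synthase (complex V). The mitochondrial members were 7 genes of complex I, 1 of complex III, 3 of complex IV and 2 of complex V. The symbol Atp5o is carried by 2 gene records, and both were counted. Ndufa4 was placed in complex IV, where its protein sits despite its name, and so was its paralog Ndufa4l2.

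Complexes I and II take electrons from NADH and succinate, complex III passes them to cytochrome c, and complex IV hands them to oxygen. Complexes I, III and IV pump protons across the inner mitochondrial membrane, and ATP synthase uses the gradient to make ATP. Every complex but complex II is assembled from subunits of both genomes, the mitochondrial ones forming the membrane core. The proximal tubule reabsorbs most of the filtered salt, glucose and amino acids, draws its energy mainly from fatty acid oxidation, and is among the cell types richest in mitochondria, which makes it sensitive to loss of oxygen.

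The mice were of the FVB strain, males and females, with no injury (sham) or with acute kidney injury, labelled IRI. Tubules were dissected out under the microscope, and the other isolates were made by digesting the kidney with enzymes and capturing CD31-positive cells on microbeads. The labels describe RNA from 3 mice per sex in each condition, so each sample was read as 1 mouse. They do not say whether a tubule and an endothelial sample came from the same mouse, and comparisons between the isolations treat them as separate. The 8 groups are sham females, sham males, injured females and injured males in each isolation, with 3 samples each except 2 in sham female endothelial isolates. All mice share the strain, and the labels name no transgene or drug. Age, length of ischemia and time after injury are not given in the sources used here.

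The 23 samples held 32592517 to 54906972 estimated reads. Sham male tubule sample 3 was sequenced as 2 libraries that were added up, and it stood low in mitochondrial reads. All 8 marker lists were measured in both isolations with no gene at 0 throughout. Tubule samples had the proximal markers Lrp2 at 709 to 4217 CPM (counts scaled to the normalized library size) and Slc34a1 at 1868 to 6517 CPM. The endothelial isolates held far more tubule than endothelial RNA: Pecam1, the gene of CD31, stood at 58.9 to 217 CPM and Cdh5 at 28.6 to 247 CPM, against 1180 to 4908 CPM for Slc34a1. They are therefore called endothelial isolates and not endothelial cells. In such bulk samples, fewer cells of a type and less RNA per cell cannot be told apart.

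Promoters of members that moved together are shown first. RefSeq (GRCm38.p6) gave 250 bases before an annotated start for 66 of 84 nuclear symbols. Their sequences were searched on both strands for GCGCANGCG, a core recognised by NRF1, a regulator of respiratory genes. It stood in 14 of the 66 promoters, or 21.2%, and in 5.86% of the 27025 symbols in the table. Among the members called in a tubule sex comparison described later, 6 of 27 held it, and among the others 8 of 39. These are 22.2 and 20.5%. The following 4 sequences are from members that were lower in male tubules, and capitals mark the match.
Ndufa5, chr6:24527691-24527940, minus strand: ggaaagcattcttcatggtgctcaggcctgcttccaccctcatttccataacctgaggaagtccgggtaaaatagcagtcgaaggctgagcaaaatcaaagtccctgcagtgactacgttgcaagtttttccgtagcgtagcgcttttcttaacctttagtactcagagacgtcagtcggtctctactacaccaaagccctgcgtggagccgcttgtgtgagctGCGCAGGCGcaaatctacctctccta
Ndufs5, chr4:123718187-123718436, minus strand: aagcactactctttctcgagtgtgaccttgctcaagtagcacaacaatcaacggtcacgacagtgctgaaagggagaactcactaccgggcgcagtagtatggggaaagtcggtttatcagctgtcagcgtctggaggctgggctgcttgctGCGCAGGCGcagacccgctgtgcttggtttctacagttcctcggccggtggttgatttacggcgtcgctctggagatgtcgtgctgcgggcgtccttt
Sdha, chr13:74350241-74350490, minus strand: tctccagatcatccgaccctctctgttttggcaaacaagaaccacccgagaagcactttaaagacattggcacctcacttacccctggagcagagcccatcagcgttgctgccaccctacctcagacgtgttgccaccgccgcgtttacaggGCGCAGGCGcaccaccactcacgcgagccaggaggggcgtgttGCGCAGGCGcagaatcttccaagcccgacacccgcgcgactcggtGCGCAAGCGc
Atp5k, chr5:108434400-108434649, minus strand: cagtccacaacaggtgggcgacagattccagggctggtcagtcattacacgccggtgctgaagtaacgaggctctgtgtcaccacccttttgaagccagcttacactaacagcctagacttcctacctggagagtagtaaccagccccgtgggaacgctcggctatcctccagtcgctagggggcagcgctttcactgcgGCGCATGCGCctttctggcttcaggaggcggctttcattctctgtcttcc
Sdha held 3 matches, which ended 89, 46 and 1 bases before the start. Ndufa5 held 1 match that ended 17 bases before this start, and Ndufs5 held 1 that ended 89 bases before. In Atp5k 2 matches overlapped, 1 on each strand, and ended 41 and 40 bases before the start. The core of the ERR site, TNAAGGTCA, stood in 2 of 66 members and 1.30% of all symbols. The YY1 core AANATGGCG stood in 3 of 66, Ndufa7, Ndufb11 and Atp5j, and in 1.29% of all. A match is a description of these letters, not evidence of binding.

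The first measure was the share of a library's reads that fell in members, and in tubules the nuclear share separated the sexes. Sham female tubules gave 2.42, 2.54 and 2.47% of reads to nuclear members, and sham male tubules 1.98, 2.02 and 1.80%. Injured female tubules gave 2.36, 2.51 and 2.44%, and injured males 1.79, 1.97 and 1.81%. The means were 2.48 ± 0.06% and 1.93 ± 0.11% in sham females and males, and 2.44 ± 0.08% and 1.86 ± 0.10% after injury (SD, n = 3). Every male tubule sample lay below every female one, in sham and after injury. The 2 libraries of sham male sample 3 gave 1.46 and 2.14%, both below the female samples.

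The 13 mitochondrial members took more reads than the 85 nuclear members, and their share did not sort the groups. It ran from 6.67 to 15.5% in tubules, with the lowest value in sham male sample 3 and the highest in injured male sample 2. Sham females had 13.1, 9.84 and 11.7%, and injured females 10.2, 11.0 and 12.2%. Sham males had 12.9, 12.1 and 6.67%, and injured males 11.7, 15.5 and 9.62%, so the samples of 1 male group spread over all female values. In endothelial isolates the nuclear share was 1.83 to 2.94% and the mitochondrial share 7.09 to 11.5%, and neither set the groups apart.

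**Figure D1:**
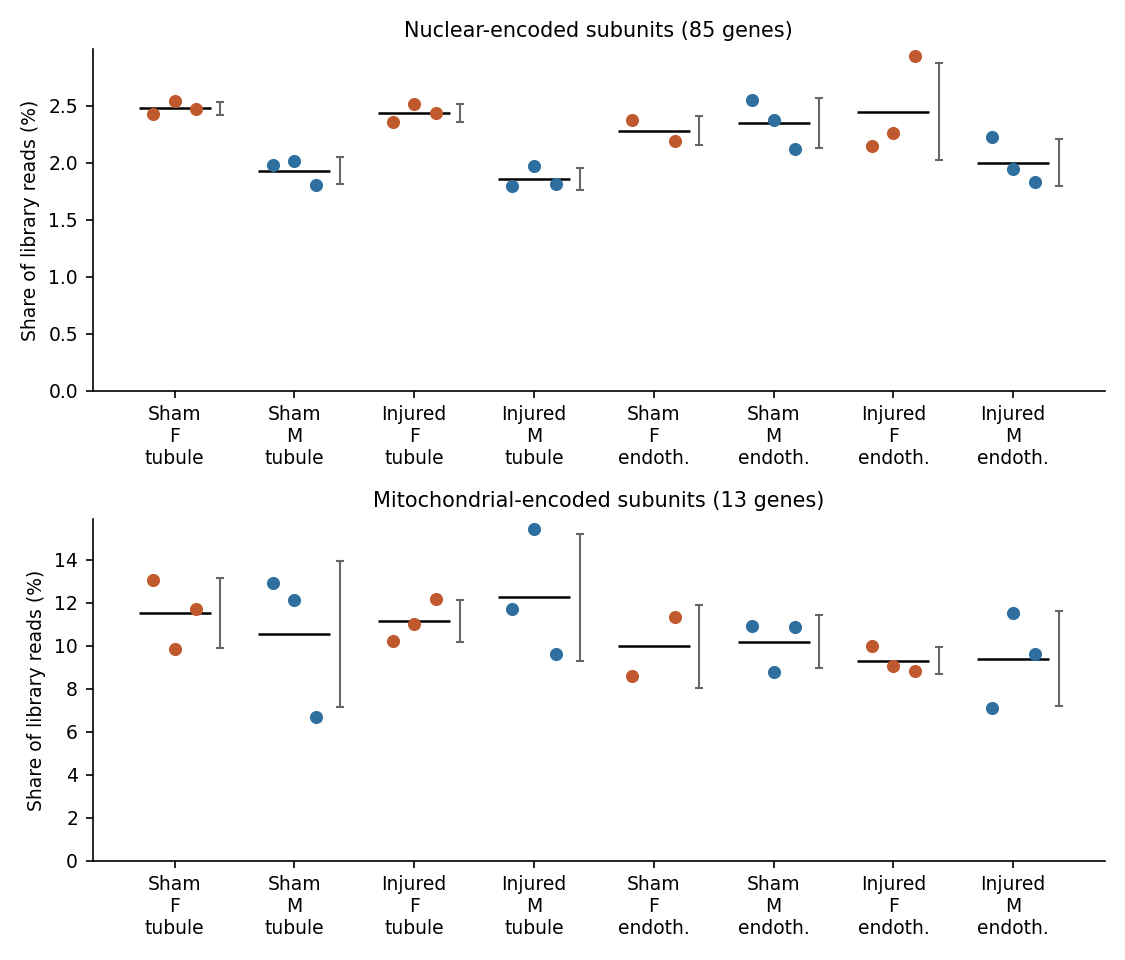
Share of library reads (%) in nuclear members and in mitochondrial members for each sample of the 8 groups, female samples in orange and male samples in blue, with bars at the group means and whiskers of 1 SD. In tubules all male samples lie below all female samples for nuclear members (1.79 to 2.02% against 2.36 to 2.54%), and the mitochondrial shares overlap.

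Levels between genes were compared per transcript length, as TPM, in which counts are divided by transcript length and scaled to a fixed total, for the 51 members in which 1 transcript of at least 100 bases effective length held at least 80% of the gene's TPM. Members outside this filter were not ranked, among them the abundant Atp5b and Atp5a1. In sham female tubules Atp5b had 3574, 3631 and 3398 CPM and Cox6a1 424, 464 and 444 CPM. Among the 51, the order of the median TPM over all samples followed the genome first. mt-Co3 led with 16311 TPM, followed by mt-Atp6 with 12185, mt-Co1 with 9950 and mt-Cytb with 7009. Of the 10 mitochondrial genes kept, mt-Nd5 was the lowest at 2066. The highest nuclear gene kept was Cox6a1 at 646 TPM, and the lowest above 10 TPM was Cox7a1 at 41.0. Among the 34 such nuclear members the median was 140 TPM for complex I (16 genes), 164 for complex II (2), 317 for complex III (4), 456 for complex IV (6) and 290 for complex V (6). The ranges of these complexes overlap.

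Most paralogs known from muscle, lung or testis were near absent. Cox6a2 had a median of 0.20 TPM beside 646 for Cox6a1, and Cox8b a highest value of 4.4 TPM beside a median of 614 for Cox8a. Cox4i2, the lung and hypoxia form of subunit 4, had 0.30 TPM. For subunit c of ATP synthase, Atp5g2 had 4.8 TPM and Atp5g1 243. Cox7a1, the form of subunit 7a known from heart and skeletal muscle, had the highest median level of the paralogs of this kind named here. Cox6b2, a paralog of Cox6b1, was lower but not near absent. Its TPM summed over transcripts had a median of 9.4 and ran from 2.7 to 30.8 over all samples. Cox7a1 ran from 12.1 to 72.3 TPM, so the ranges of these genes overlap.

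In sham tubules, 13 of the 82 nuclear members tested were lower in males than in females and none was higher. They spread over complex I (Ndufa3, Ndufa5, Ndufb2, Ndufc1, Ndufs4), complex III (Uqcrb), complex IV (Cox5b, Cox7a1, Cox7b) and complex V (Atp5j2, Atp5k, Atp5mpl, Atp5o). By edgeR's quasi-likelihood test with Benjamini-Hochberg adjustment over 18369 genes, 2.56% of all genes were lower and 3.24% higher at an adjusted p under 0.05, which makes 5.8% in either direction. Of higher nuclear members, 1 had an unadjusted p under 0.05 and DESeq2 called 0, against 6.34% of all genes higher.

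Most other nuclear members lay on the same side. The log2 difference was negative for 77 of 82, with a median of -0.40, while 48.7% of all genes were negative with a median of 0.01. At an unadjusted p under 0.05, 48 nuclear members were lower, against 8.33% of all genes. For 65 of 82 every male sample lay below every female sample, against 14.6% of all genes. Without sham male sample 3 the count was 66 of 82, against 22% of all genes. The 5 members above 0 were Ndufv1 (0.12), Ndufa10 (0.01), Atp5g2, the second Atp5o record and Cox6a2, and the last 3 were low in every group.

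Uqcrb, a small subunit of complex III, had 210, 205 and 231 CPM in sham females and 135, 127 and 124 CPM in sham males. The groups do not overlap and the spread within each is narrow. The log2 difference was -0.75 ± 0.11 (SE), or 1.68-fold more in females (adjusted p = 0.0022), and it passed the threshold in all 17 alternative settings run.

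Atp5k encodes subunit e of ATP synthase, which helps the enzyme form dimers. It had 170, 144 and 158 CPM in females and 64.7, 67.6 and 95.4 CPM in males, the third male sample being the highest of them. The log2 difference was -1.05 ± 0.18 (adjusted p = 0.0046). Cox7a1 had the largest difference of the called members, with 23.1, 18.4 and 17.5 CPM in females and 10.2, 8.09 and 5.56 CPM in males. Its log2 difference was -1.31 ± 0.28 (adjusted p = 0.018). Both genes were well apart between the sexes.

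The members of complex I that were called are accessory subunits. Ndufa5, of the arm that reaches into the matrix, had 122, 126 and 126 CPM in females and 76.3, 80.8 and 77.9 CPM in males, a log2 difference of -0.67 ± 0.12 (adjusted p = 0.0077). Ndufa3, of the membrane arm, had 86.6, 93.9 and 90.6 CPM in females and 52.1, 58.8 and 60.9 CPM in males, a log2 difference of -0.66 ± 0.12 (adjusted p = 0.0065). Of the core subunits that carry iron-sulfur clusters, Ndufs8 differed by -0.25 ± 0.15 (adjusted p = 0.42) and Ndufv2 by -0.40 ± 0.11 (adjusted p = 0.071).

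In complex IV, Cox7b had 275, 274 and 292 CPM in females and 171, 173 and 145 CPM in males, a log2 difference of -0.78 ± 0.19 (adjusted p = 0.030). Cox6c, also a small subunit, had a difference of the same size, -0.78 ± 0.22, that missed the threshold (adjusted p = 0.060). The 4 subunits of complex II, Sdha, Sdhb, Sdhc and Sdhd, had log2 differences of -0.25, -0.30, -0.40 and -0.27, with adjusted p-values of 0.26, 0.29, 0.051 and 0.18. In each of the 4 all male samples lay below all female samples.

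Transcript length moved with this comparison. The 36 nuclear members under 300 bases of effective length had a median log2 difference of -0.49, and the 249 other coding genes of that length with at least 20 CPM had -0.20. Between 1000 and 2000 bases the 5 members had -0.22 and the 2036 other genes 0.07. Short genes were thus lower in male samples in general, and the members lay below genes of like length in both bins. The part of transcript length or RNA quality in the difference was not tested. The count of 13 was 5 with library 3B alone for sham male sample 3, and 3 to 5 without any 1 of the 6 sham samples.

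Sex comparisons were repeated on injured tubules, which share no sample with the sham ones. There 27 of 82 nuclear members were lower in males and none was higher, by edgeR's quasi-likelihood test, against 10.5% of all genes lower, 12.8% higher and 23.3% in either direction. No nuclear member was higher at an unadjusted p under 0.05, and DESeq2 called 0 higher, against 18.5% of all genes. By complex, 15 of 35 were lower in complex I, 2 of 4 in complex II, 2 of 8 in complex III, 2 of 17 in complex IV and 6 of 18 in complex V. The median log2 difference was -0.31, against -0.06 for all genes, and 73 of 82 were negative, against 52.8%. In 40 of 82 every injured male sample lay below every injured female sample, against 21.9% of all genes. Without injured male sample 3 the count was 41 of 82, against 37.6% of all genes, and 7 lay wholly above, against 32.5%. Then edgeR's test also called Ndufa4 (0.43 ± 0.11), Cox7a2l (0.25 ± 0.08) and Ndufa1 (0.32 ± 0.11) higher in males. Their adjusted p-values were 0.0060, 0.023 and 0.037, and 20.4% of all genes were higher.

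Here core subunits of complex I were among the largest differences. Ndufs8 had 120, 130 and 127 CPM in injured females and 50.8, 62.0 and 74.7 CPM in injured males. Females had 2.01-fold more (SE 0.15 on the log2 scale, adjusted p = 0.0017). Ndufs1, the largest core subunit, had 330, 326 and 355 CPM in females and 190, 185 and 244 CPM in males, a log2 difference of -0.71 ± 0.14 (adjusted p = 0.0052). For both genes the highest male value, in sample 3, stayed below the lowest female value.

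Ndufs7, another core subunit with an iron-sulfur cluster, had 134, 146 and 178 CPM in females and 66.5, 78.1 and 131 CPM in males. Sample 3 nearly reached the female range, and the log2 difference was -0.73 ± 0.22 (adjusted p = 0.036). The accessory subunit Ndufc1 had 72.8, 84.4 and 83.0 CPM in females and 45.6, 57.5 and 42.3 CPM in males. Its difference was -0.72 ± 0.14 (adjusted p = 0.0047).

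In ATP synthase, Atp5g1, a gene for subunit c of the rotor ring, had 236, 247 and 275 CPM in injured females and 136, 162 and 158 CPM in injured males, a log2 difference of -0.73 ± 0.12 (adjusted p = 0.0028). Atp5o, the stalk subunit that confers oligomycin sensitivity, had 292, 331 and 340 CPM in females and 199, 231 and 190 CPM in males, a difference of -0.64 ± 0.12 (adjusted p = 0.0042). Atp5k differed by -0.73 ± 0.18 (adjusted p = 0.014). All 3 were separated without overlap.

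Sdha, the flavoprotein that oxidises succinate, had 830, 766 and 900 CPM in injured females and 621, 532 and 572 CPM in injured males. The log2 difference was -0.53 ± 0.11 (adjusted p = 0.0087), and Sdhc, a membrane anchor of complex II, differed by -0.40 ± 0.11 (adjusted p = 0.021). Cox7a1 was again the called gene with the largest difference, at 14.2, 16.7 and 12.9 CPM in females and 6.48, 8.07 and 4.09 CPM in males (-1.24 ± 0.28, adjusted p = 0.011).

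**Figure D2:**
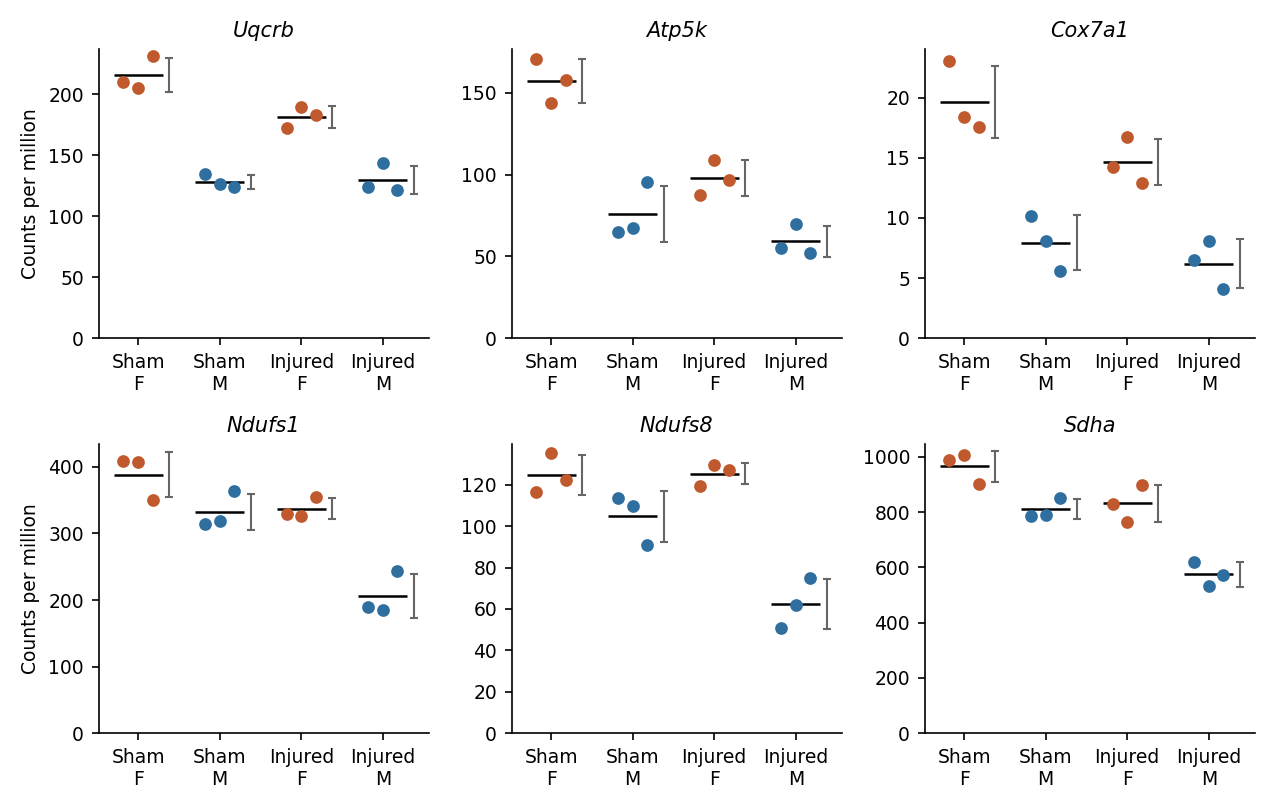
CPM of 6 members in each tubule sample, with F for females in orange and M for males in blue, bars at the group mean and whiskers of 1 SD (n = 3). Uqcrb, Atp5k and Cox7a1 are lower in males in sham and after injury, and Ndufs1, Ndufs8 and Sdha are lowest in injured males.

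Of the 13 members lower in sham males, 9 were also lower in injured males, which is 69.2% of the first list and 33.3% of the second. Over all genes, 635 of the 1065 called in sham, or 59.6%, were called after injury. The 9 were Ndufa3, Ndufa5, Ndufc1, Uqcrb, Cox5b, Cox7a1, Atp5j2, Atp5k and Atp5o. The difference was negative in both comparisons for 73 of 82 nuclear members, or 89.0%, for 1 of 13 mitochondrial members, or 7.69%, and for 31.7% of all genes.

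Markers of other cells moved with the injured comparison. The 10 markers of thick ascending limb and distal tubule summed to 6211 to 7934 CPM in injured females and 2317 to 5525 in injured males, and 5 of the 10 were lower in males. The 12 proximal markers summed to 21178 to 25614 CPM in injured females and 12913 to 16051 in injured males, and 5 of 12 were lower in males. The 11 collecting duct markers summed to 1001 to 1245 CPM in injured females and 394 to 570 in injured males. The distal marker covariate was a score of the distal and the collecting duct markers together. With it, 5 nuclear members were lower in place of 27, against 7.93% of all genes, and 6 mitochondrial members were higher in place of 0, against 10.3%. The part of these markers in the sex difference was not tested further. In sham the distal sums overlapped, with 2154 to 2578 CPM in females and 1866 to 3734 in males, and the proximal sums were 25959 to 30551 and 24199 to 29320. The collecting duct sums in sham were 105 to 306 CPM in females and 194 to 1512 in males.

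Injury in male tubules did not move the nuclear members as a group. The median log2 change was -0.03, equal to that of all genes, and 44 of 82 were negative, against 51.2%. In edgeR's quasi-likelihood test 4 members fell and none rose, against 8.43% of all genes lower, 10.6% higher and 19% in either direction. DESeq2 called 6 lower and 0 higher, against 12.3% and 16.5% of all genes, and 2 members were higher at an unadjusted p under 0.05.

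The 4 that fell were 3 subunits of complex I and 1 of complex II. Ndufs8, a core subunit, went from 114, 110 and 90.8 CPM in sham males to 50.8, 62.0 and 74.7 after injury, and fell by 0.74 ± 0.15 on the log2 scale (adjusted p = 0.0097). Ndufs1 went from 314, 319 and 364 CPM to 190, 185 and 244, and fell by 0.69 ± 0.14 (adjusted p = 0.0086). Sdha went from 787, 792 and 852 CPM to 621, 532 and 572, and fell by 0.49 ± 0.11 (adjusted p = 0.016). Each gene was below its sham range in every injured male.

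Ndufv3, an accessory subunit of the NADH-binding module of complex I, had 97.0, 111 and 94.3 CPM in sham males and 56.9, 58.6 and 71.0 after injury. It fell by 0.69 ± 0.12 (adjusted p = 0.0053), and again the groups did not overlap. When the fit held only the male groups, these 4 lost the threshold, with adjusted p-values of 0.105 to 0.143.

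Complex IV and complex I leaned to opposite sides of 0. In complex IV 2 of 17 changes were negative and the median was 0.22, whereas in complex I 22 of 35 were negative and the median was -0.13. This lean rested on which injured males were read. Cox6c had 206, 206 and 174 CPM in sham males and 275, 322 and 154 in injured males. Cox4i1, which encodes the main regulatory subunit, had 616, 625 and 492 CPM and 783, 912 and 458 CPM. In both genes injured samples 1 and 2 lay above every sham male and sample 3 below, and the changes of 0.36 ± 0.21 and 0.31 ± 0.21 did not pass (adjusted p = 0.26 and 0.30).

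Without injured male sample 3, the comparison of 2 against 3 called 12 nuclear members higher and 12 lower. In each direction this was a smaller share than among all genes, at 20% and 22.5%. Of the 12 that rose, 9 belong to complex IV, which has 20 nuclear members: Cox4i1, Cox6a1, Cox6b1, Cox6c, Cox7a2, Cox7a2l, Cox7b, Cox8a and Ndufa4. Cox7a2l, which joins complexes III and IV into supercomplexes, rose by 0.60 ± 0.08 and Cox6c by 0.61 ± 0.11 (adjusted p = 0.0001 and 0.0010). The others were Ndufa1, Ndufc2 and Uqcrq. Of the 12 that fell, 10 belong to complex I, which has 35 nuclear members, with Ndufs7 at -0.93 ± 0.14 and Ndufs8 at -0.89 ± 0.13. The others were Sdha and Atp5s (-0.94 ± 0.17). mt-Nd1 rose by 0.75 ± 0.26 (adjusted p = 0.041). The share of genes called was 42.5%, against 19% with sample 3.

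**Figure D3:**
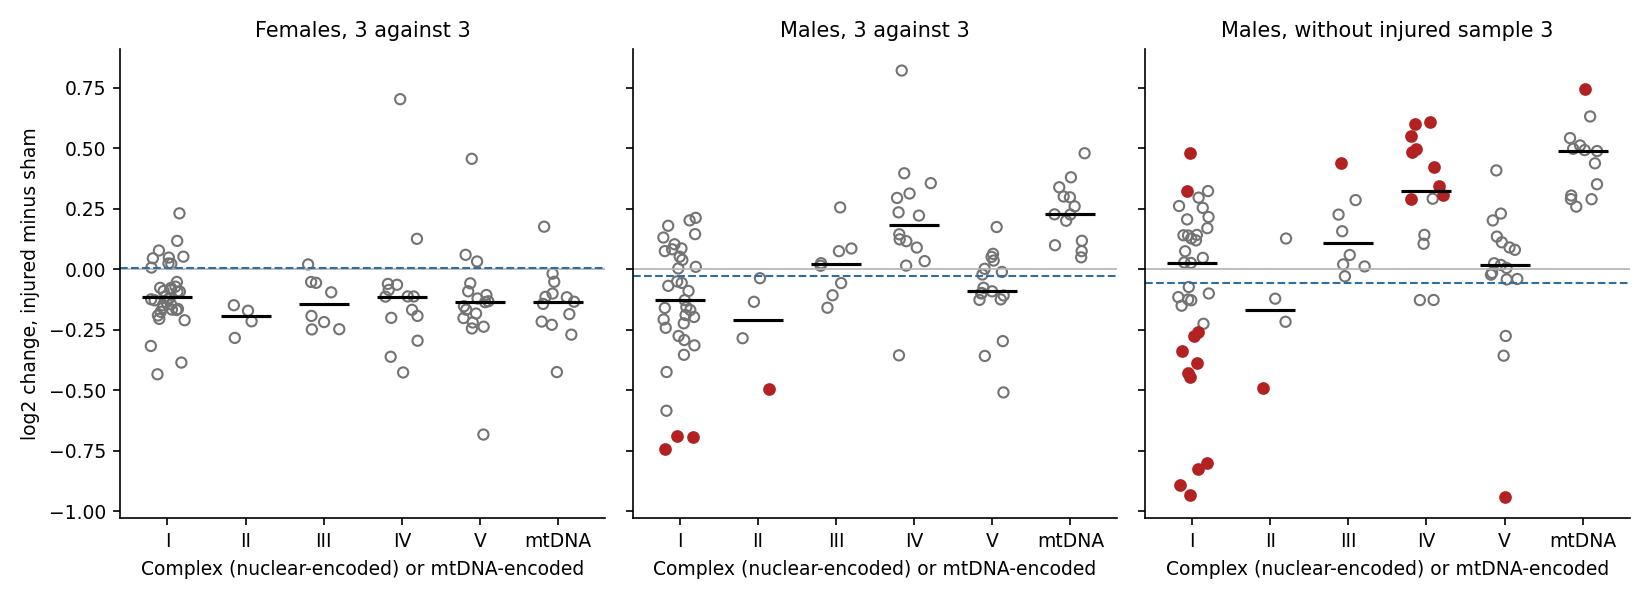
log2 change, injured minus sham, of the members in female tubules, in male tubules and in male tubules without injured sample 3, by complex. Each circle is a gene, filled red at an adjusted p under 0.05, black bars are medians and the blue dashed line is the median of all genes. With 3 against 3 males, 4 nuclear members are filled, and without sample 3 the filled circles are 12 above and 12 below 0, with complex IV above.

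Other measures moved with injury in males. The proximal marker sum was 24199 to 29320 CPM in sham males and 12913 to 16051 in injured males, and 7 of 12 markers were lower by edgeR's test. Of the 6 neutrophil markers tested, 4 were higher. All 7 listed neutrophil markers summed to 1.5 to 2.3 CPM in sham males and 5.0 to 34.7 in injured males. The part of these in the members' values was not tested.

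In female tubules injury called no member. By edgeR's quasi-likelihood test 0 nuclear members passed, while 2 were higher and 5 lower at an unadjusted p under 0.05, and DESeq2 called 1 higher and 3 lower, against 3.75% of all genes in either direction. With edgeR, 2 of 18369 genes passed, or 0.0109%. The median of nuclear members was -0.12, against 0.00 for all genes, and 64 of 82 were negative, against 49.4%. Part of this lean was shared by other coding genes of like length with at least 20 CPM. Under 300 bases 70.7% of these were negative (median -0.08), beside 88.9% of members (-0.17). At 300 to 600 bases 60.0% were negative (-0.06), beside 67.9% of members (-0.09). The injured females lay wholly below the sham females in 29 members and above in 4, against 11.8% and 15.3% of all genes. Markers of other tubule segments moved with injury in females, with no overlap between the groups. The thick ascending limb and distal markers summed to 2154 to 2578 CPM in sham females and 6211 to 7934 in injured females, and the collecting duct markers to 105 to 306 and 1001 to 1245. The proximal markers summed to 25959 to 30551 CPM in sham females and 21178 to 25614 in injured females. The part of these in the members' values was not tested.

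The smallest p-values in females belonged to Atp5k, Ndufa3, Atp5g1 and Ndufv3. Atp5k had 170, 144 and 158 CPM in sham females and 87.7, 109 and 97.0 CPM in injured females (-0.68 ± 0.17, adjusted p = 0.14). Atp5g1 had 181, 188 and 183 CPM and 236, 247 and 275 CPM (0.46 ± 0.12, adjusted p = 0.16). Both genes were separated without overlap, in opposite directions, and neither passed the adjustment over all genes.

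The sex difference of the injury response was tested as an interaction. No nuclear member passed edgeR's quasi-likelihood test, against 0.855% of all genes, with 4 lower and 0 higher at an unadjusted p under 0.05. DESeq2 called 1 lower, Ndufs8 (-0.69 ± 0.23, adjusted p = 0.032), against 3.27% of all genes. By edgeR Ndufs8 also had the smallest p, with a log2 difference of -0.75 ± 0.21 between the responses (adjusted p = 0.11). Next were Atp5g1 at -0.47 ± 0.17, Ndufs1 at -0.48 ± 0.19 and Ndufs7 at -0.70 ± 0.31, with adjusted p-values of 0.18, 0.20 and 0.24. With all samples, then, Ndufs8 passed by 1 of the tools and no other member by either. Without injured male sample 3, 13 members had a more positive response in males and 7 a more negative one, against 13.2% and 17.3% of all genes, and Cox7a2l (0.66 ± 0.11) and Cox6c (0.90 ± 0.15) led the first group.

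No mitochondrial member was called in any tubule comparison of all samples without a covariate. By edgeR's quasi-likelihood test, DESeq2 and an unadjusted p under 0.05 alike, 0 of 13 passed in each. With the distal marker covariate, 6 were higher in injured males than in injured females: mt-Nd1, mt-Nd2, mt-Nd5, mt-Nd6, mt-Cytb and mt-Atp8, with mt-Nd1 at 1.40 ± 0.34 (adjusted p = 0.022). In sham, mt-Nd1, mt-Co1 and mt-Cytb had log2 sex differences of 0.02 ± 0.31, -0.01 ± 0.32 and 0.00 ± 0.30, and mt-Atp6 of -0.27 ± 0.21. mt-Co1, the catalytic subunit of complex IV, had 26640, 21062 and 25896 CPM in sham females and 30253, 28098 and 14814 CPM in sham males. The SE of these genes was larger than that of most nuclear members named here, and small differences were not detectable.

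After injury the median mitochondrial difference between males and females was 0.34, with 1 of 13 negative. mt-Nd1 had 7605, 8228 and 9095 CPM in injured females and 13499, 17446 and 7617 CPM in injured males. Injured male sample 3 lay inside the female range and the other two above it (0.63 ± 0.31, adjusted p = 0.16). Without that sample, 3 of 13 mitochondrial genes were higher in males, a share near the 20.4% of all genes. These were mt-Nd1, mt-Nd5 and mt-Nd6, all of complex I. The overlapping pairs mt-Atp6 with mt-Atp8 and mt-Nd4 with mt-Nd4l share sequence, so their split of reads is uncertain.

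**Figure D4:**
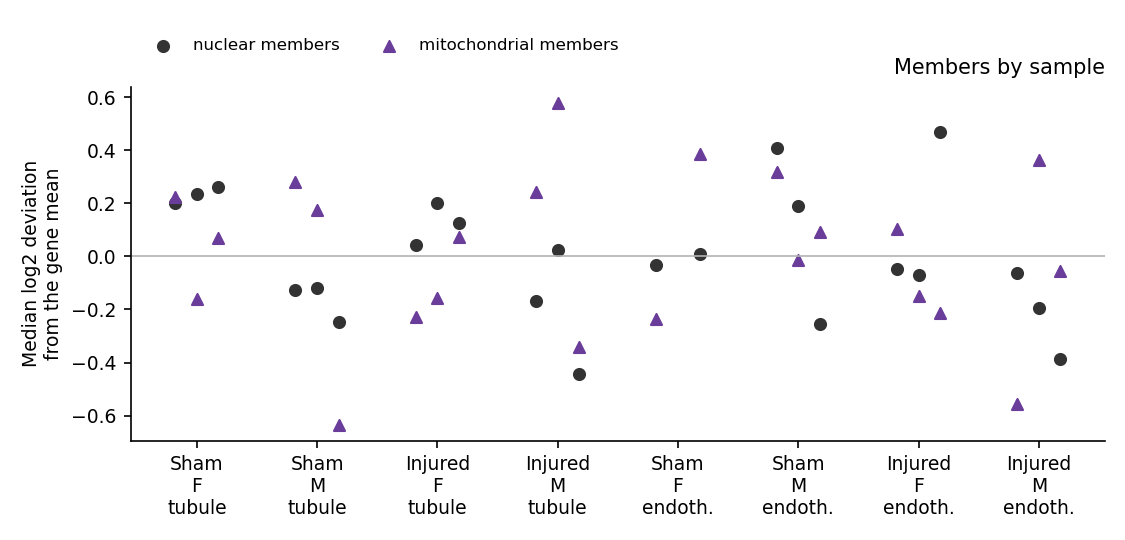
Median log2 deviation of the nuclear and of the mitochondrial members from each gene's mean over the samples of an isolation, for every sample. Nuclear members are above 0 in all female tubule samples (0.04 to 0.26) and injured male tubule sample 3 is the lowest (-0.44). The mitochondrial medians run from -0.63 to 0.58 over the samples. They vary within groups, from -0.63 to 0.28 in sham male tubules and from -0.34 to 0.58 in injured male tubules.

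In endothelial isolates, injured males lay below injured females in 80 of 82 nuclear members, with a median log2 difference of -0.34, against 48.8% of all genes negative and a median of 0.02. Injured female sample 3 stood apart: the median deviation of nuclear members from the gene means was -0.05, -0.07 and 0.47 in injured females. In injured males it was -0.06, -0.19 and -0.39, so much of the lean rested on that 1 sample. Other coding genes under 300 bases with at least 20 CPM had a median of -0.09 here. Every injured male sample was below every injured female sample in 24 of 82, against 12.6% of all genes. By edgeR's quasi-likelihood test Cox7a1 alone passed, against 0.834% of all genes lower and 1.5% in either direction. It had 9.83, 15.6 and 18.4 CPM in injured females and 6.13, 6.00 and 3.29 CPM in injured males (-1.51 ± 0.31, adjusted p = 0.041). The call was lost in 9 of 14 alternatives, and DESeq2 called 3 members lower, against 2.72% of all genes.

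Injury in male endothelial isolates gave 78 of 82 negative changes with a median of -0.33, against 51.6% and -0.02 for all genes. The sham males were split, with median deviations of nuclear members of 0.41, 0.19 and -0.25. Sham sample 3 thus lay among the injured males, at -0.06, -0.19 and -0.39. None passed edgeR's test, against 0.864% of all genes, while 8 were lower and 1 higher at an unadjusted p under 0.05, and DESeq2 called 3 lower and 1 higher, against 6.08% of all genes. Cox7a1 had 14.3, 11.1 and 14.4 CPM in sham males (-1.37 ± 0.31, adjusted p = 0.072). The 12 proximal markers summed to 12047 to 23013 CPM in sham and 8355 to 9945 in injured males, and to 19722 to 23818 in injured females. The proximal marker sum of these isolates was thus also lower after injury in males, as it was in male tubules. Less tubule RNA and lower marker expression cannot be told apart here, and their part in the members' values was not tested.

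The other endothelial comparisons leaned to the positive side. Injury in females had 20 of 82 negative and a median of 0.13, against 49.1% of all genes, and sham males against females 19 of 82 negative and a median of 0.13, against 49.9%. Other coding genes of 300 to 600 bases with at least 20 CPM leaned further, with medians of 0.23 and 0.27. By edgeR's quasi-likelihood test and by DESeq2, 0 nuclear members were called in either, against 0% and 0.432% of all genes by edgeR and 0.166% and 1.95% by DESeq2, with 2 nuclear members in each at an unadjusted p under 0.05. The interaction called 0 by both tools, against 0% of all genes by edgeR and 0.316% by DESeq2, with 3 nuclear members at an unadjusted p under 0.05. Its median was -0.46, with 78 of 82 negative, against 50.9% of all genes. Much of this lean was shared: of other coding genes with at least 20 CPM, 78.7% of those under 300 bases and 80.6% of those of 300 to 600 bases were negative, with medians of -0.30 and -0.36. For mitochondrial members both tools called 0 in these comparisons, with mt-Nd3 of complex I at 1.07 ± 0.39 in sham males against females (adjusted p = 0.54).

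Between the isolations, sham endothelial isolates differed from sham tubules in 2 nuclear members. Ndufa4l2, a paralog of Ndufa4 that hypoxia induces, had 4.13 and 1.38 CPM in sham female and 2.67, 1.76 and 3.26 CPM in sham male endothelial isolates. In sham tubules it had 0.32, 0.82 and 0.14 CPM in females and 0.30, 0.20 and 0.16 CPM in males, and the isolations do not overlap. The log2 difference was 3.11 ± 0.46 (adjusted p = 0.00023), against 10.4% of all genes higher, and it held in all 21 alternatives. Of 12 endothelial markers, 11 were higher in the endothelial isolates. Other markers moved too: thick ascending limb and distal markers summed to 8174 to 16488 CPM in sham endothelial isolates and 1866 to 3734 in sham tubules, and podocyte markers to 712 to 1368 and 20.7 to 303. Their part in the difference was not tested.

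Sdha had a log2 difference of -0.30 ± 0.09 (adjusted p = 0.039), against 1.86% of all genes, and the call held in 6 of 21 alternatives. Cox4i2, the hypoxia form of subunit 4, had a difference of 2.99 ± 1.03 (adjusted p = 0.064). The mitochondrial members were all negative with a median of -0.34, and 0 were called by edgeR or DESeq2 (16.9% of all genes by the latter, in either direction), with 2 at an unadjusted p under 0.05. For the injury response, 0 members of either genome differed between isolations by edgeR or DESeq2, against 0% of all genes by edgeR and 0.113% by DESeq2, with 2 nuclear and 0 mitochondrial members at an unadjusted p under 0.05.

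Genes that build and regulate the chain were read from 5 lists. These lists were drawn up with earlier results of these data known. Of all genes, 10.5% were lower and 12.8% higher in injured males against females, and 8.43% fell and 10.6% rose in male injury. With injured male sample 3 left out these shares were 23.7 and 20.4%, and 22.5 and 20%. Of 14 assembly factors of complex I, edgeR's quasi-likelihood test called 0 in the sham sex comparison (median -0.09), with 3 at an unadjusted p under 0.05 and 1 by DESeq2. After injury 7 of 14 were lower in males (median -0.64), among them Acad9 (-0.91 ± 0.24, adjusted p = 0.019) and Ndufaf5 (-0.97 ± 0.25, adjusted p = 0.019). In the male injury comparison 6 of 14 fell (median -0.68), with Acad9, an assembly factor of the acyl-CoA dehydrogenase family, at -1.26 ± 0.24 (adjusted p = 0.0070). In female injury edgeR called 0 of 14 (median -0.13), with 1 at an unadjusted p under 0.05 and 1 by DESeq2. Without injured male sample 3, 12 of 14 were lower in both of the other comparisons.

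Of 34 assembly factors and partners of complexes II to V, 1 was higher and 2 lower in sham males, against 3.24% and 2.56% of all genes. The first was Cycs, the gene of cytochrome c (0.65 ± 0.14, adjusted p = 0.021), and the others were Cox17, a copper chaperone of complex IV (-0.61 ± 0.14, adjusted p = 0.028), and Uqcc2, of complex III (-0.84 ± 0.20, adjusted p = 0.033). After injury 10 were lower and 1 higher in males, with Coa6 (-0.99 ± 0.16) and Uqcc3 (-0.97 ± 0.18) leading. In male injury 6 fell and 1 rose. Without injured male sample 3, the counts were 23 lower and 2 higher in the injured sex comparison, and 22 lower and 1 higher in male injury. Ndufab1, a carrier protein and complex I subunit outside the symbol rule, was lower in injured males (-0.61 ± 0.13, adjusted p = 0.0080).

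Of 14 regulators of mitochondrial biogenesis, edgeR's test called 0 in the sham sex comparison (median 0.05), with 1 at an unadjusted p under 0.05 and 1 by DESeq2. After injury 3 were higher and 5 lower in males: Ppargc1a, the coactivator that drives respiratory genes, had a log2 difference of -1.50 ± 0.32 (adjusted p = 0.0080) and its relative Pprc1 one of 1.66 ± 0.27 (adjusted p = 0.0025). In male injury Sirt3, a mitochondrial deacetylase, fell by 1.22 ± 0.15 (adjusted p = 0.0010), while Pprc1 rose by 1.19 ± 0.27 and Gabpb1 by 1.42 ± 0.35. In all, 3 rose and 4 fell, and without injured male sample 3 the counts were 6 and 6.

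Of 20 genes that copy and express the mitochondrial genome, 0 were called in sham by edgeR or DESeq2, with 1 at an unadjusted p under 0.05. In male injury 3 fell: Twnk, the helicase (-0.83 ± 0.22), Polg2, of the DNA polymerase (-0.75 ± 0.21), and Tefm, a transcription elongation factor (-1.02 ± 0.32). Leaving out injured male sample 3, 14 fell and 2 rose. After injury 1 was higher and 2 lower in males, no larger a share than among all genes, and they included Tbrg4 (0.67 ± 0.13, adjusted p = 0.0051) and Twnk (-0.77 ± 0.22, adjusted p = 0.030). With that sample left out, 3 were higher and 13 lower. Of 12 genes of the hypoxic metabolic switch, 3 rose and 2 fell in male injury, with Slc2a1, a glucose transporter, at 2.97 ± 0.71 and Vegfa at -0.53 ± 0.16 (adjusted p = 0.019 and 0.037). In sham males Egln3, which marks HIF for breakdown, was lower (-1.86 ± 0.32, adjusted p = 0.0056).

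The authors' deposited tables, made with DESeq2, list 83 nuclear and 13 mitochondrial members. The authors' deposited table for sham tubules has 25 nuclear members lower in males and 0 higher at an adjusted p under 0.05, against 8.74% of genes in either direction. In the authors' deposited table for injured tubules 23 were lower and 0 higher, against 24.9%. For injury the authors' deposited tables have 5 lower in males, against 22.8%, and 1 higher and 2 lower in females, against 2.5%. No mitochondrial member passes in any of the 8 authors' deposited tables.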

How the data were processed

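Messenger RNA libraries were selected for poly-A tails and sequenced on a NextSeq, per the labels' protocols, which favours polyadenylated transcripts of both genomes. The authors quantified them with Salmon 0.13.1 on mouse transcripts of GRCm38, per the submitters' processing notes. The deposited files give estimated counts, TPM (scaled by length and depth) and effective lengths for 136202 transcripts. The authors' comparison tables, made with DESeq2 (version not given in the sources used here), hold log2 fold changes and adjusted p-values, per the file headers.

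Estimated counts of all transcripts of a gene, non-coding ones included, were summed and rounded, and the 24 libraries gave 23 samples. Salmon splits reads between near-identical copies, so members with processed pseudogenes carry that uncertainty. EdgeR 4.0.16 in R 4.3.3 was run with TMM, filterByExpr (minimum count 10, total 15), 1 mean per group, the quasi-likelihood F-test and Benjamini-Hochberg adjustment over all genes tested: 18369 in tubules, 19910 in endothelial isolates and 21206 in both, for 12 comparisons. Each fit held 82 nuclear members (83 in the fit of both) and 13 mitochondrial ones, so members below the filter are not in the counts. Genes with an adjusted p below 0.05 are the ones called. Each SE was taken as the log2 difference over the root of F, and p-values measure the spread between samples. The depth of 32592517 to 54906972 reads sets the counting error only. The fit was tested on simulated data with less spread between samples than these data have. That test therefore does not measure the error rate or power of the fit here.

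The members and gene lists were chosen with earlier results of these data known. Named were, per comparison, up to 8 called nuclear members with the largest change in each direction, or the 4 with the smallest p where none passed, mt-Co1, mt-Cytb, mt-Nd1, mt-Atp6, the paralog pairs, the Sdh genes, up to 4 genes per list and 6 markers. Other names, the filter for per-length levels and the ribosomal lists were chosen after values were seen. The alternatives were RLE normalization, no filter, DESeq2 1.42.0, length offsets, library sizes without mitochondrial reads, a replicate block, marker covariates, only the groups compared, either library of sham male tubule sample 3, and leaving out each sample. Leaving injured male tubule sample 3 out of the spread was added after seeing the data.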

Additional observations from a re-analysis of the deposited data

How the results depend on the processing

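Each member called in a comparison was followed under its alternatives, and none changed direction: of 773 such values, 511 kept their call and 262 lost it. Members that were not called were not followed in this way, and the lists were run only by DESeq2 and without injured male tubule sample 3. The share of all genes called moved with the setting too, so a count alone is not a result about the members. It went from 19 to 42.5% in male tubule injury without injured male sample 3. With DESeq2 it went from 0.0109 to 3.75% in female tubule injury and from 0.864 to 6.08% in male endothelial injury. For most settings below the share is not given here. Counts of nuclear members called moved over 1.5 times as follows. For sham tubule males against females (13), they were 5 with library 3B alone, 6 without the low-count filter, 34 by DESeq2, 44 with only the groups compared, 48 with injured male sample 3 out of the spread, and 3 to 5 leaving out 1 sample. For injured tubules (27), they were 12 without the filter, 5 with the distal covariate, 7 with only the groups compared and 10 to 32 leaving out 1 sample. There mitochondrial members numbered 6 with the distal covariate and 0 to 3 leaving out 1 sample. For male tubule injury (4), they were 0 with only the groups compared and 3 to 24 leaving out 1 sample, with 0 to 1 mitochondrial. For female tubule injury (0), they were 4 by DESeq2, 6 with only the groups compared and 3 with injured male sample 3 out of the spread. The tubule interaction (0) gave 1 by DESeq2 and 0 to 20 leaving out 1 sample. Male endothelial injury (0) gave 2 without the filter, 4 by DESeq2 and 0 to 1 leaving out 1 sample. Injured endothelial males against females (1) gave 3 by DESeq2, 0 with length offsets, the proximal covariate or only the groups compared, and 0 to 1 leaving out 1 sample. Sham endothelial isolates against tubules (2) gave 1 with library 3 alone, length offsets, nuclear library sizes or only the groups compared, and 1 to 3 leaving out 1 sample. Mitochondrial members there numbered 1 with library 3B alone, 1 with injured male tubule sample 3 out of the spread, and 0 to 2 leaving out 1 sample. The causes were not tested.

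Samples with the same number were not paired: their deviations correlated above 0.1 in 7 of 18 tubule pairs (-0.22 to 0.35) and 4 of 15 endothelial pairs (-0.55 to 0.64). Of the tubule and endothelial samples that share a number in their titles, 6 of 11 pairs were above 0.1 (-0.84 to 0.92). With the replicate block, 13 members were called in sham and 27 in injured tubules, and the counts fell to 0 for injured endothelial males against females and to 1 for sham endothelial isolates against tubules. Depth limits members near the filter: Cox6a2 had no read in any sham female tubule sample, so no fold is given for it.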

Other observations

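Ribosomal proteins, also encoded by short and abundant transcripts, were listed after the data were seen. Of 77 genes for proteins of the cytosolic ribosome, 9 were lower in sham male tubules than in females and 0 higher by edgeR's quasi-likelihood test. Of all genes 2.56% were lower and 3.24% higher. The ribosomal median was -0.39, close to the -0.40 of the respiratory members. DESeq2 called 17 of the 77 lower and 0 higher, against 6.34% of all genes higher. After injury the median of these 77 was on the other side of 0, at 0.22. In males 6 were higher and 0 lower, a smaller share than the 12.8% of all genes that were higher. DESeq2 called 15 higher, against 18.5% of all genes. In male injury 35 rose and 0 fell, with a median of 0.46, against 10.6% of all genes higher. Without injured male sample 3, 27 were higher in injured males and 63 rose in male injury, against 20.4 and 20% of all genes. Of 78 genes for the mitochondrial ribosome, 13 were lower and 1 higher in injured males against females, against 10.5 and 12.8% of all genes. In sham 2 of the 78 were lower in males, against 2.56% of all genes. Without injured male sample 3, 36 were lower and 5 higher, against 23.7 and 20.4%. In injured tubules the respiratory members were thus on the other side of 0 from the cytosolic ribosomal genes.

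Ndufv3 has a short and a long protein-coding transcript, an item chosen after its values were seen. The long one, of 1537 bases, held 7.0, 7.4 and 6.3% of the gene's TPM in sham female tubules and 17.99, 16.6 and 14.5% in sham male tubules. In injured tubules it held 8.7, 8.0 and 9.3% in females and 9.5, 9.3 and 20.9% in males. In endothelial isolates females had 7.9 to 9.8% and males 10.9 to 16.9%, so every male sample lay above every female one. The difference in sham tubules was 9.49 percentage points, and the exact two-sided permutation test gave p = 0.1, the smallest that 3 against 3 allows. These are estimates by Salmon from reads that the 2 transcripts partly share.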
